A study of Saccharomyces cerevisiae with 16 samples.

Results

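The 36 genes described here encode the machinery that brings proteins into yeast mitochondria and folds them there. They were taken by systematic ID, not by any measured value. They comprise 4 receptors of the outer membrane translocase TOM, its channel with 3 small Tom subunits, 5 small Tim chaperones, 3 subunits of the carrier translocase TIM22, 4 of the presequence translocase TIM23, 6 of the import motor PAM, the 2 matrix chaperonin genes, the 2 genes of the intermembrane space disulfide relay, 3 of the sorting machinery SAM, the 2 subunits of the processing peptidase, and OXA1. All 36 were among the 7126 genes listed and among the 6106 tested. Their mRNA was compared between polysomes and the whole lysate, and between 3 electroporations.

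The yeast strain was Saccharomyces cerevisiae trm10∆, which lacks the tRNA methyltransferase gene TRM10. Every group carried this deletion, so no wild-type strain served as a control. The cell wall was removed, and the resulting spheroplasts were electroporated with rancRNA_18, a short ribosome-associated noncoding RNA that derives from the TRM10 mRNA, with rancRNA_18-M2, or with no RNA. The labels do not say how the M2 form differs. Poly(A) mRNA was sequenced from polysomes pooled after a density gradient (polysomal) and from the whole cleared lysate (total). With rancRNA_18 there were 1 polysomal and 2 total libraries, with rancRNA_18-M2 3 and 3, and with no RNA 3 and 3. The 2 polysomal files labelled rancRNA_18 held the same count in every gene and were used as 1 library, so that group had no replicate.

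The 15 distinct libraries held 16691019 to 31148081 reads in genes, and TRM10 had 0 to 5 reads in each. Levels are given as CPM, the reads of a gene scaled to 1000000 reads in genes, with each library size first adjusted by edgeR's TMM factor. A CPM is therefore not the plain share of reads of a gene. RPKM also divides by the coding length and is given where genes are compared with each other. No spike-in is named, so each value is relative to the other genes of its library, and fewer cells and less mRNA per cell cannot be told apart. The labels do not state that replicates came from separate cultures, so a p-value measures the spread between these libraries, which may be technical.

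Nearly all mitochondrial proteins are made on cytosolic ribosomes and enter through the TOM complex, from which they are passed to the SAM complex of the outer membrane, the disulfide relay and small Tim chaperones of the intermembrane space, or the TIM22 and TIM23 translocases of the inner membrane. Presequence proteins are pulled into the matrix by the Hsp70 motor, cut by the processing peptidase and folded with the Hsp60 and Hsp10 chaperonin. Several of these factors are essential for growth of yeast, and some of their mRNAs are known to be translated close to the mitochondrial surface.

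Together the 36 genes held 0.374 to 0.547% of the reads of a library, and the least abundant of them had at least 250 reads in every library. The level of these genes followed the replicate number of the library. Averaged over groups, their level in libraries numbered 2 exceeded that in the other numbers of the same group by a median log2 difference of 0.27, with 32 of 36 genes above 0. In libraries numbered 3 the median was -0.30, with 29 genes below 0, and in those numbered 1 it was 0.03. The median over all tested genes was 0.00, 0.02 and -0.01 for the same numbers. These medians use TMM-scaled CPM and count each gene equally. The summed share of reads was instead lowest in number 1 in every group with more than 1 library. In polysomal rancRNA_18-M2, for example, it was 0.391, 0.511 and 0.47% for numbers 1, 2 and 3. TOM6 stood highest in number 2 (0.74), and TIM12 lowest in number 3 (-0.69). The number was therefore also entered in the tests as a block, which compares libraries within a number, and both results are given where they differ.

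In total mRNA the median RPKM of the 36 genes was 136, against 31.5 over the 5921 genes with reads and a coding length. HSP10, the lid of the matrix chaperonin, was highest at 1440 ± 276 RPKM (SD, n = 8 total libraries). It was followed by TOM5, a small TOM subunit, at 728 ± 133 RPKM, and by TIM10, a chaperone of the intermembrane space, at 617 ± 73.1 RPKM. These 3 genes differed by more than their SDs, apart from TOM5 and TIM10, whose ranges of mean ± SD overlapped. At the lower end stood SAM50, the channel of the SAM complex, with 26.2 ± 1.31 RPKM, and TOM71, a minor receptor related to TOM70, with 21.0 ± 0.97 RPKM. The import motor chaperone gene SSC1 had 267 ± 39.5 RPKM. SSC1 has a near copy, ECM10, and TOM70 resembles TOM71, so reads of these genes could be split between copies.

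Many mRNAs for mitochondrial proteins carry, after the stop codon, a binding motif of the RNA-binding protein Puf3. Its consensus TGTANATA was searched in the 200 bases after the stop codon in the RefSeq assembly R64, in windows not trimmed at neighbouring genes. The motif was present in 24 of the 36 windows (66.7%), against 831 of 5743 windows of tested genes (14.5%). Its reverse complement was present in 7 of the 36 (19.4%), against 13.5% of the windows of tested genes. For comparison, 20 of 36 other import and folding genes (55.6%), 71 of 73 mitochondrial ribosomal protein genes (97.3%) and 6 of 39 oxidative phosphorylation genes (15.4%) held the motif. The sites are shown for 3 pairs of genes that both held the motif and whose products work together. The members of each pair lay on opposite sides in polysomal against total mRNA. TOM22, another partner of TOM40 on the opposite side, held no motif in its window. The motif is in capitals, and the strand is that of the mRNA.
HSP10: tatgtaccTGTAAATAggccatta
HSP60: tattatctTGTAAATAcaatgtga
ERV1: gattctcgTGTATATAacactcca
MIA40: atgatacaTGTAAATAcagtaata
TOM7: aattgacaTGTACATAaagtatat
TOM40: aataattaTGTATATAcgtgggca
The motif began 55 bases after the stop codon in HSP10 and 59 in HSP60, 64 in ERV1 and 56 in MIA40, and 94 in TOM7 and 147 in TOM40. HSP10, HSP60 and MIA40 held the same 8 letters, TGTAAATA. A match is a description of the sequence, not a measured binding site.

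Which mRNAs the ribosomes carried was addressed by polysomal against total mRNA, taken as the mean of the rancRNA_18-M2 and no RNA electroporations (6 against 6 libraries). By edgeR's quasi-likelihood test with Benjamini-Hochberg adjustment, 8 of the 36 genes were higher in polysomes, where 5.62% of all tested genes were called higher. These were TIM8, TOM7, ERV1, TIM13, TIM10, TOM22, SAM35 and TIM21. Lower in polysomes were 3 genes, MIA40, HSP60 and MAS1, where the share over all tested genes was 4.9%. The median log2 fold change was 0.13 for the 36 genes and -0.01 for all tested genes. With the replicate block 16 genes were higher and 6 lower, where 21.0% and 22.0% of all tested genes were called. The 6 include MAS2 at an adjusted p of 0.0499, just inside the threshold. Leaving out single libraries gave 4 to 12 called genes without the block. It gave 4 without replicate 3 of either total group and 4 without replicate 2 of either polysomal group, 5 without replicate 1 of polysomal no RNA, and 7 and 6 without replicates 1 and 2 of total rancRNA_18-M2.

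**Figure D1:**
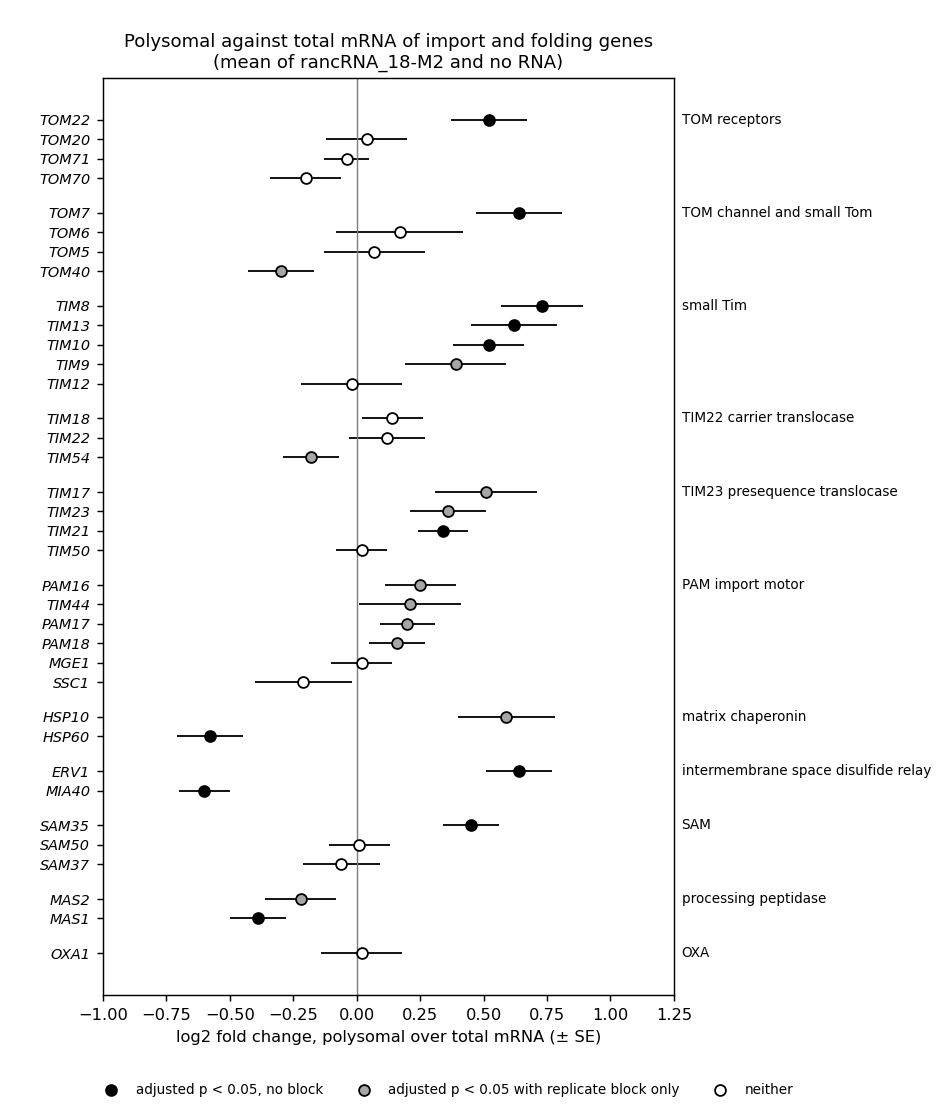
Log2 fold change of polysomal over total mRNA for each of the 36 genes, with bars of 1 SE from edgeR (6 against 6 libraries), grouped by role. Black points passed without the replicate block, grey points only with it, and white points in neither; TIM8 lies farthest right at 0.73 and MIA40 farthest left at -0.60.

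Among the TOM receptors, TOM22 (YNL131W), the central receptor of the complex, rose to 289 ± 44.0 CPM in polysomal libraries, against 202 ± 31.6 CPM in total libraries (SD, n = 6 each), a log2 fold change of 0.52 (SE 0.15, adjusted p = 0.041). The presequence receptor TOM20 had 0.04 (SE 0.16), the carrier receptor TOM70 -0.20 (SE 0.14) and TOM71 -0.04 (SE 0.09), and none of the 3 passed with or without the block. TOM71 (YHR117W) had 40.2 CPM in the polysomal library with rancRNA_18, 43.1, 33.6 and 41.2 CPM in those with rancRNA_18-M2, and 38.5, 37.7 and 40.4 CPM in those with no RNA. In total libraries it had 40.1 and 40.8 CPM with rancRNA_18, 40.3, 39.8 and 42.6 CPM with rancRNA_18-M2, and 40.1, 36.4 and 42.1 CPM with no RNA. The fractions overlapped.

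TOM40 (YMR203W), which forms the import channel, and TOM7 (YNL070W), a small subunit bound to it, lay on opposite sides. Polysomal TOM7 measured 50.6 CPM with rancRNA_18, 53.2, 68.6 and 70.9 CPM with rancRNA_18-M2, and 57.7, 59.7 and 33.0 CPM with no RNA. Its total mRNA measured 30.3 and 36 CPM with rancRNA_18, 35.9, 31.7 and 30.7 CPM with rancRNA_18-M2, and 41.2, 51.6 and 29.1 CPM with no RNA. The polysomal rancRNA_18 library and replicate 3 of polysomal no RNA lay within the range of the total libraries, and the other polysomal libraries exceeded every total library. TOM7 rose by a log2 fold change of 0.64 (SE 0.17, adjusted p = 0.031) and was higher in polysomes in 6 of 6 pairs of the same number and electroporation. Its call ended in 6 of the 12 fits that left out a library, with log2 fold changes of 0.54 to 0.75 over all 12.

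For TOM40 the polysomal level was 160 CPM with rancRNA_18, 180, 143 and 124 CPM with rancRNA_18-M2, and 193, 168 and 154 CPM with no RNA. The total level was 189 and 210 CPM with rancRNA_18, 215, 211 and 174 CPM with rancRNA_18-M2, and 196, 226 and 161 CPM with no RNA. The fractions overlapped, yet TOM40 was lower in polysomes in 6 of 6 pairs. Its log2 fold change was -0.30 (SE 0.13, adjusted p = 0.17), which passed with the block (adjusted p = 0.0035). The other small subunits did not pass in either fit: TOM6 had a log2 fold change of 0.17 (SE 0.25) and TOM5 0.07 (SE 0.20).

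TOM5 (YPR133W-A), with the shortest coding region of the group at 153 nt, showed how far replicate numbers differed. In polysomal libraries it had 100 CPM with rancRNA_18, 140, 166 and 87.5 CPM with rancRNA_18-M2, and 87.0, 142 and 79.0 CPM with no RNA. In total libraries it had 113 and 112 CPM with rancRNA_18, 123, 145 and 80.4 CPM with rancRNA_18-M2, and 121, 109 and 87.4 CPM with no RNA. In these TMM-scaled values number 3 was the lowest in each group that had it.

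The small Tim chaperones escort hydrophobic precursors across the intermembrane space. Of the 5 genes, 3 were called higher in polysomes, where 5.62% of all tested genes were. All 5 have coding lengths under 500 nt, where 183 of all 808 tested genes were called higher. TIM8 (YJR135W-A) measured 97.3 CPM in polysomal mRNA with rancRNA_18, 82.0, 86.4 and 92.3 CPM with rancRNA_18-M2, and 99.5, 106 and 53.6 CPM with no RNA. In total mRNA it measured 51.7 and 47.3 CPM with rancRNA_18, 48.8, 47.8 and 41.9 CPM with rancRNA_18-M2, and 63.8, 69.9 and 43.3 CPM with no RNA. All polysomal libraries but replicate 3 of no RNA lay above every total library. Its log2 fold change of 0.73 (SE 0.16, adjusted p = 0.017) was the largest of the 36 genes and passed in all 12 fits that left out a library, at 0.64 to 0.86.

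TIM13 (YGR181W), the partner of TIM8, had 131 CPM in polysomes with rancRNA_18, 153, 154 and 107 CPM with rancRNA_18-M2, and 108, 153 and 82.9 CPM with no RNA. In total mRNA it had 78.2 and 78.1 CPM with rancRNA_18, 91.4, 100 and 63.3 CPM with rancRNA_18-M2, and 85.8, 84.2 and 66.2 CPM with no RNA. Again only replicate 3 of polysomal no RNA fell into the range of total libraries. The log2 fold change was 0.62 (SE 0.17, adjusted p = 0.034), and the call ended in 7 of the 12 fits that left out a library, with fold changes of 0.49 to 0.71.

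Polysomal TIM10 (YHR005C-A) measured 259 CPM with rancRNA_18, 238, 287 and 254 CPM with rancRNA_18-M2, and 249, 285 and 188 CPM with no RNA. Total TIM10 measured 170 and 175 CPM with rancRNA_18, 166, 175 and 155 CPM with rancRNA_18-M2, and 192, 212 and 146 CPM with no RNA. The range of total libraries held replicate 3 of polysomal no RNA and none of the other polysomal libraries. TIM10 rose by a log2 fold change of 0.52 (SE 0.14, adjusted p = 0.030), a call that ended in 7 of the 12 fits that left out a library. Its partner TIM9 had 0.39 (SE 0.20, adjusted p = 0.25) and passed only with the block (adjusted p = 0.0019). TIM12, which docks the small Tim chaperones on the TIM22 translocase, had -0.02 (SE 0.20) and did not pass in either fit.

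The disulfide relay traps small cysteine-rich proteins in the intermembrane space: MIA40 is the oxidoreductase that binds them, and ERV1 is the oxidase that restores MIA40. The pair lay at opposite ends. Polysomal ERV1 (YGR029W) measured 68.9 CPM with rancRNA_18, 90.1, 91.6 and 69.2 CPM with rancRNA_18-M2, and 60.5, 96.5 and 64.6 CPM with no RNA. Total ERV1 measured 47.4 and 47.1 CPM with rancRNA_18, 50.8, 58.3 and 46.9 CPM with rancRNA_18-M2, and 48.7, 53.5 and 45.4 CPM with no RNA. In TMM-scaled CPM, on which alone separation was judged, every polysomal library lay above every total library. ERV1 was the only one of the 36 genes with such a separation upward over the 6 polysomal and 6 total libraries with rancRNA_18-M2 or no RNA, where 2.78% of all tested genes had it. Its log2 fold change was 0.64 (SE 0.13, adjusted p = 0.011).

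MIA40 (YKL195W) had 97.2 CPM in polysomes with rancRNA_18, 98.2, 97.8 and 109 CPM with rancRNA_18-M2, and 92.7, 110 and 114 CPM with no RNA. In total mRNA it had 158 and 156 CPM with rancRNA_18, 163, 162 and 164 CPM with rancRNA_18-M2, and 138, 152 and 164 CPM with no RNA. No polysomal library reached the lowest total one. MIA40 fell by a log2 fold change of -0.60 (SE 0.10, adjusted p = 0.0061), the smallest adjusted p of the group. It and HSP60 were the 2 genes separated downward, where 3.82% of all tested genes were. The calls of ERV1 and MIA40 held in all 12 fits that left out a library.

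**Figure D2:**
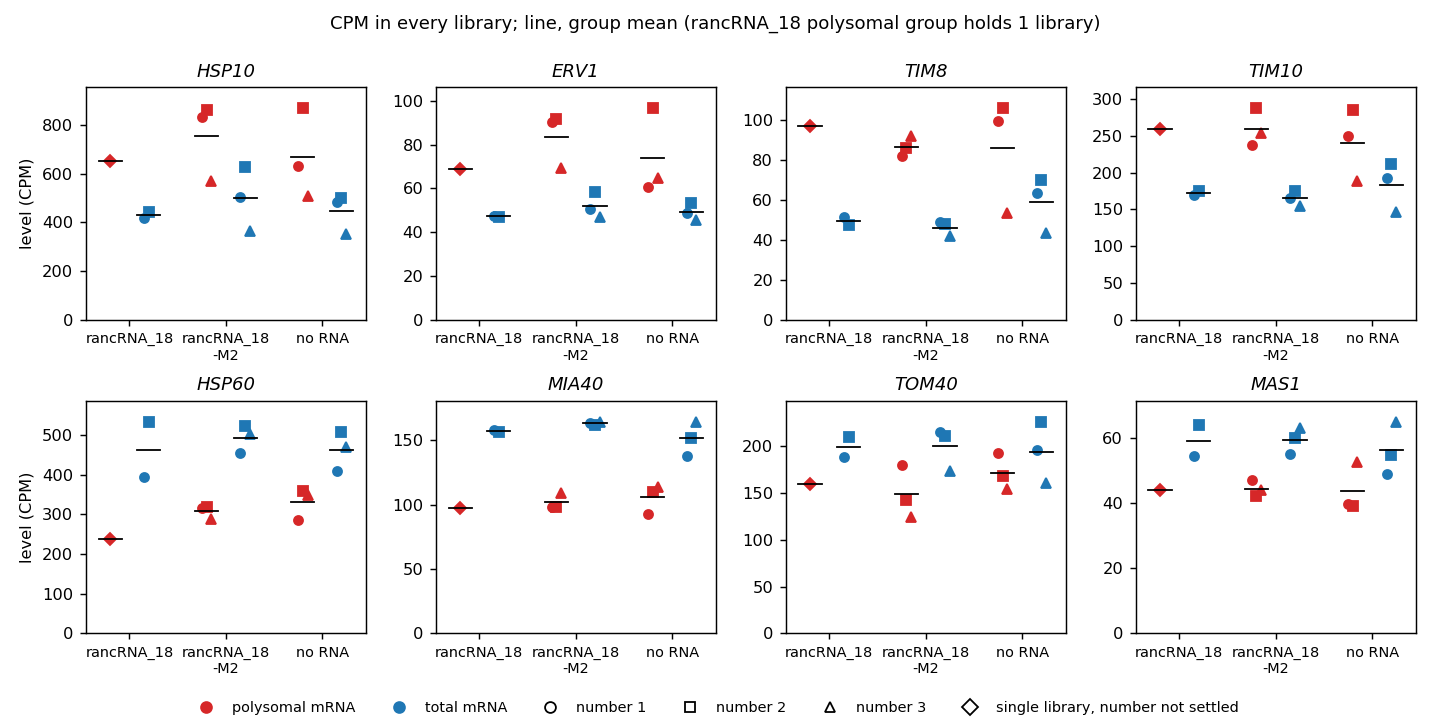
CPM of 8 genes in each of the 15 libraries, by electroporated RNA, with polysomal libraries in red left of total libraries in blue, symbols for the replicate number and a line at the group mean. Polysomal points lie above total points for ERV1 and below them for HSP60 and MIA40 without overlap, and for TIM8 only replicate 3 of polysomal no RNA, at 53.6 CPM, falls among the total libraries.

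In the inner membrane, the TIM23 translocase takes in presequence proteins and the TIM22 translocase inserts carriers. TIM21 (YGR033C), a TIM23 subunit that contacts TOM, averaged 93.9 ± 8.99 CPM in polysomal libraries and 74.2 ± 7.36 CPM in total libraries (SD, n = 6 each), with a log2 fold change of 0.34 (SE 0.10, adjusted p = 0.040). The channel subunits TIM17 at 0.51 (SE 0.20, adjusted p = 0.12) and TIM23 at 0.36 (SE 0.15, adjusted p = 0.13) passed with the block only, at adjusted p of 7.5e-05 and 0.00084. TIM50, the presequence receptor, had 0.02 (SE 0.10). None of the 3 carrier translocase genes passed without the block. TIM18 had 0.14 (SE 0.12), TIM22 had 0.12 (SE 0.15), and TIM54 had -0.18 (SE 0.11), which passed with the block (adjusted p = 0.034).

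Of the 6 motor genes, none passed without the block and 4 were higher with it, where 21.0% of all tested genes were called higher. The co-chaperones PAM16 (0.25, SE 0.14) and PAM18 (0.16, SE 0.11), the subunit PAM17 (0.20, SE 0.11) and TIM44, which tethers the Hsp70 to the channel (0.21, SE 0.20), had adjusted p of 0.0056, 0.049, 0.022 and 0.046 with the block. The nucleotide exchange factor MGE1 had a log2 fold change of 0.02 (SE 0.12). SSC1, the Hsp70 of the motor, had -0.21 (SE 0.19) and was lower in polysomes in 5 of 6 pairs, with an adjusted p of 0.052 with the block.

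The matrix chaperonin consists of HSP60, whose rings enclose the folding protein, and HSP10. Polysomal HSP60 (YLR259C) measured 238 CPM with rancRNA_18, 317, 318 and 287 CPM with rancRNA_18-M2, and 286, 359 and 349 CPM with no RNA. Total HSP60 measured 394 and 532 CPM with rancRNA_18, 454, 522 and 501 CPM with rancRNA_18-M2, and 408, 507 and 470 CPM with no RNA. Every polysomal library lay below every total library. HSP60 fell by a log2 fold change of -0.58 (SE 0.13, adjusted p = 0.017), and the call held in all 12 fits that left out a library, at -0.62 to -0.53.

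For HSP10 (YOR020C) the polysomal level was 651 CPM with rancRNA_18, 832, 861 and 570 CPM with rancRNA_18-M2, and 633, 868 and 510 CPM with no RNA. The total level was 418 and 444 CPM with rancRNA_18, 506, 627 and 364 CPM with rancRNA_18-M2, and 485, 502 and 353 CPM with no RNA. The ranges overlapped, and in TMM-scaled CPM number 3 was lowest in each group that had it. Yet each polysomal library exceeded the total library of its own number in 6 of 6 pairs. The log2 fold change was 0.59 (SE 0.19, adjusted p = 0.059), which passed with the block (adjusted p = 7.5e-06). Without the block it also passed when replicate 3 of polysomal no RNA (adjusted p = 0.038) or of polysomal rancRNA_18-M2 (adjusted p = 0.036) was left out.

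The 2 subunits of the processing peptidase, which cuts presequences in the matrix, lay on the lower side. MAS1 (YLR163C) measured 44.1 CPM in polysomes with rancRNA_18, 47.2, 42.4 and 44.1 CPM with rancRNA_18-M2, and 39.8, 39.3 and 52.7 CPM with no RNA. In total mRNA it measured 54.7 and 64 CPM with rancRNA_18, 55.1, 60.0 and 63.3 CPM with rancRNA_18-M2, and 48.9, 55.0 and 65.0 CPM with no RNA. One library of polysomal no RNA, replicate 3, exceeded the lowest total library. MAS1 fell by a log2 fold change of -0.39 (SE 0.11, adjusted p = 0.040), a call that ended in 10 of the 12 fits that left out a library although the fold change stayed between -0.46 and -0.33. MAS2 had -0.22 (SE 0.14, adjusted p = 0.35) and was lower in polysomes in 6 of 6 pairs. With the block it stood at -0.21 (SE 0.08, adjusted p = 0.0499).

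In the SAM complex, which inserts barrel proteins into the outer membrane, SAM35 (YHR083W), its receptor subunit, rose to 105 ± 14.8 CPM in polysomal libraries, against 77.3 ± 8.67 CPM in total libraries (SD, n = 6 each), a log2 fold change of 0.45 (SE 0.11, adjusted p = 0.026). SAM37 had -0.06 (SE 0.15) and SAM50 0.01 (SE 0.12). Polysomal SAM50 measured 37.4 CPM with rancRNA_18, 33.0, 31.5 and 48.0 CPM with rancRNA_18-M2, and 33.6, 38.4 and 47.5 CPM with no RNA, and total SAM50 35.1 and 38.9 CPM with rancRNA_18, 36.5, 38.4 and 40.8 CPM with rancRNA_18-M2, and 36.4, 39.3 and 39.3 CPM with no RNA. The polysomal libraries spanned both sides of the total ones. OXA1, the insertase for proteins made in or sorted through the matrix, had 0.02 (SE 0.16) and did not pass.

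The opposite signs showed in ratios of RPKM between partners within a library, a description of genes picked after their values were seen. The ratio of HSP10 to HSP60 had a median of 13 (7.83 to 14.6) over 7 polysomal libraries and of 5.49 (3.90 to 6.44) over 8 total libraries. For ERV1 to MIA40 the medians were 1.51 (1.21 to 1.99) in polysomal and 0.652 (0.588 to 0.764) in total libraries. TOM22 to TOM40 gave 4.70 (3.80 to 5.85) in polysomal and 2.59 (2.35 to 2.80) in total libraries. None of these 3 ratios overlapped between the fractions. For ERV1 to MIA40 this follows from the separation of each gene alone. The partners in all 3 lay on opposite sides, so the ratios add no separate support. The other ratios did overlap, those of MAS1 to MAS2, TIM8 to TIM13, TIM9 to TIM10, TIM17 to TIM23 and PAM16 to PAM18. The partners in each of these lay on the same side. TIM8 to TIM13, for example, had a median of 0.830 in polysomal and 0.792 in total libraries.

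The partners that differed also differed in length, and polysomal enrichment fell with coding length. Over the 36 genes Spearman's rho between the log2 fold change and the coding length was -0.73, and over 5744 tested genes with a coding length it was -0.40, both across genes, which share their libraries and are not independent. The 12 genes under 500 nt had a median log2 fold change of 0.52, against 0.43 for all 808 tested genes of that length. From 500 to under 1000 nt the medians were 0.16 for the 11 genes and 0.13 for all 1433. At 1000 nt or more they were -0.20 for the 13 genes and -0.08 for all 3503. All 8 genes called higher had under 1000 nt and all 3 called lower had more. Over all tested genes, 183, 137 and 20 were called higher in these length ranges, from short to long. Called lower were 17, 38 and 201. Set against the trend of all genes with length, 16 of the 36 lay above and 20 below, with a median difference of -0.07.

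Each library was then corrected for its own trend with length, which leaves differences between genes of like length. Without the block, 1 gene was then higher (SAM35, 0.47, SE 0.10, adjusted p = 0.021) and 3 lower (MIA40, HSP60 and TIM12), where 3.29% and 4.35% of all tested genes were called. MIA40 had -0.51 (SE 0.08, adjusted p = 0.0065), HSP60 -0.45 (SE 0.11, adjusted p = 0.025) and TIM12 -0.49 (SE 0.11, adjusted p = 0.020). ERV1 had 0.35 (SE 0.12, adjusted p = 0.080), and TIM8, TOM7, TIM13 and TIM10 had 0.27, 0.20, 0.16 and 0.06, with adjusted p of 0.24 to 0.81. HSP10 had 0.14 (SE 0.10, adjusted p = 0.43), and with the block as well its adjusted p was 0.10. With the block and the length correction together, 3 genes were higher (SAM35, ERV1 and TIM44) and 7 lower (MIA40, HSP60, TIM12, TOM5, TOM20, TOM40 and MAS1), where 18.6% and 19.0% of all tested genes were called. TOM5 then stood at -0.38 (SE 0.08, adjusted p = 0.0022). What moves with length was not tested further.

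**Figure D3:**
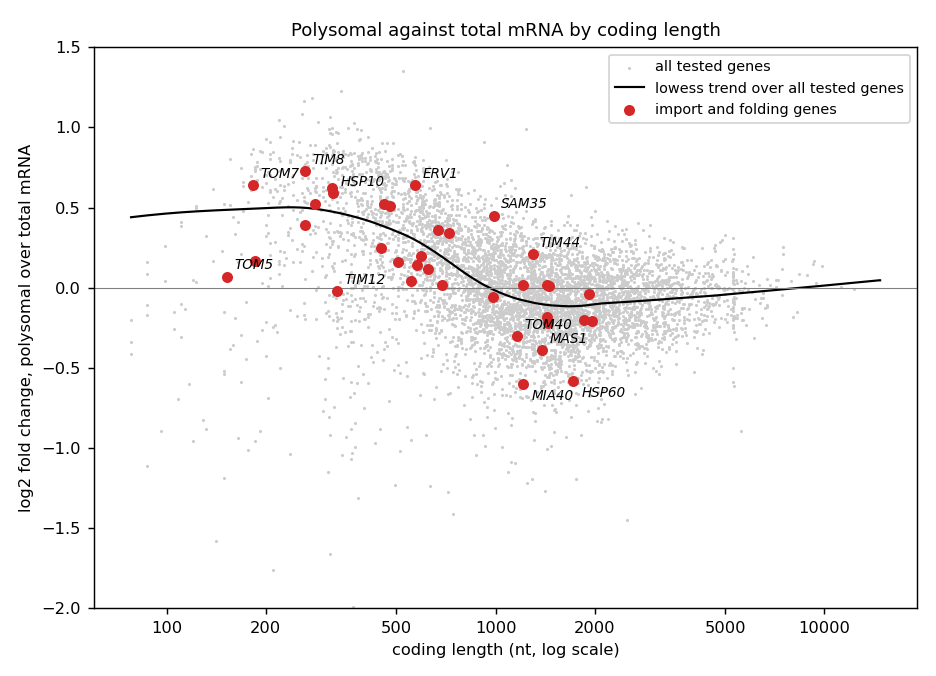
Log2 fold change of polysomal over total mRNA against coding length (log axis) for all tested genes (grey), with their lowess trend (line) and the 36 genes in red; genes outside the plotted range are not drawn. SAM35, ERV1 and TIM44 lie above the trend, by 0.46, 0.34 and 0.30, and MIA40, TIM12 and HSP60 below it, by differences of -0.52, -0.49 and -0.46.

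Genes with the Puf3 motif occurred both among those higher and among those lower in polysomes. The median log2 fold change was 0.17 (-0.60 to 0.73) in the 24 genes with the motif and -0.01 (-0.39 to 0.52) in the 12 without it. Over all tested genes it was -0.04 in the 831 with the motif and 0.00 in the 4912 without it. Coding length was not taken into account here, and a relation of the motif to polysomal enrichment was not tested.

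Taken by electroporation, the comparison of polysomal with total mRNA rested on fewer libraries. With rancRNA_18-M2 (3 against 3) 0 of the 36 genes passed in edgeR, where 0.377% of all tested genes did. Of the 36, 13 had an unadjusted p under 0.05, against 17.3% of all tested genes. DESeq2 called 7, where it called 6.68% of all tested genes. The smallest p values belonged to TOM7 (0.97, SE 0.24, adjusted p = 0.079) and TIM8 (0.91, SE 0.23, adjusted p = 0.096) on the higher side, and to MIA40 (-0.68, SE 0.14, adjusted p = 0.058) and HSP60 (-0.68, SE 0.18, adjusted p = 0.10) on the lower side. With the block, 14 were higher and 5 lower, where 16.6% and 15.2% of all tested genes were called.

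With no RNA (3 against 3) 0 genes passed in edgeR, where 0.197% of all tested genes did. Unadjusted, 9 of the 36 had a p under 0.05, against 10.6% of all tested genes, and DESeq2 called 1, where it called 1.88% of all tested genes. ERV1 had 0.59 (SE 0.18, adjusted p = 0.30), SAM35 0.48 (SE 0.16, adjusted p = 0.31), MIA40 -0.52 (SE 0.14, adjusted p = 0.21) and HSP60 -0.48 (SE 0.18, adjusted p = 0.37). The block gave 10 higher and 3 lower genes, where 12.5% and 9.53% of all tested genes were called. These libraries are separate from those with rancRNA_18-M2. Across the 36 genes the log2 fold changes of the 2 electroporations had r = 0.93 and rho = 0.94, with the same sign in 30, against r = 0.77 and rho = 0.82 across all 6106 genes. The points share the length trend, and genes are not independent replicates.

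**Figure D4:**
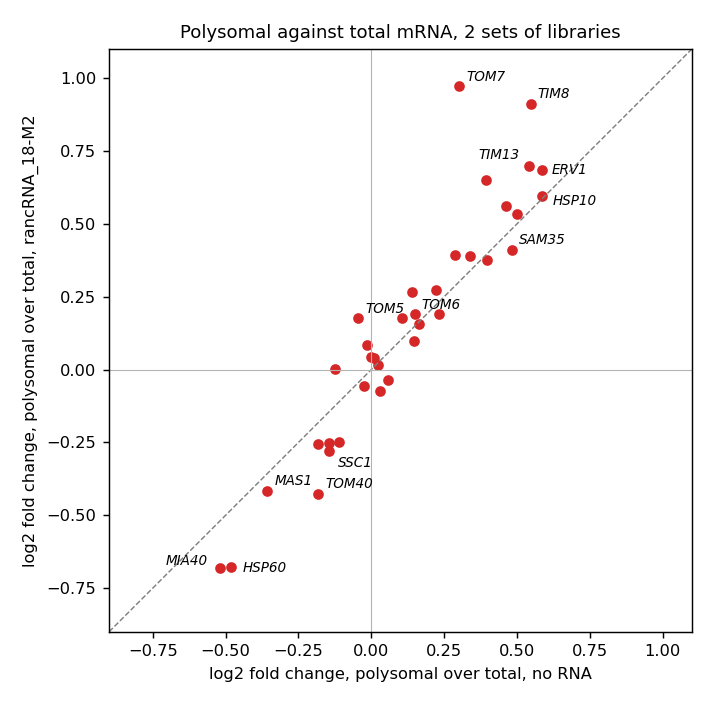
Log2 fold change of polysomal over total mRNA of the 36 genes with rancRNA_18-M2 (vertical) against the same with no RNA (horizontal); the dashed line marks equal values. Of the 36 genes 21 lie above 0 in both and 9 below 0 in both, and TOM7, at 0.97 and 0.30, lies farthest above the line.

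With rancRNA_18 (1 polysomal against 2 total libraries, with the spread borrowed from the other groups) 0 genes passed in edgeR, where 0.0% of all tested genes did. Unadjusted, 4 genes had a p under 0.05, against 8.24% of all tested genes, and DESeq2 called 2, where it called 0.77% of all tested genes. TIM8 had a log2 fold change of 0.97 (SE 0.34), TIM21 0.50 (SE 0.20), HSP60 -0.96 (SE 0.28) and MIA40 -0.69 (SE 0.22), each with an adjusted p between 0.45 and 0.57. The number of the single polysomal library is not known. Taken as number 1, the block gave 6 higher and 2 lower genes (8.32% and 3.93% of all tested genes). Taken as number 2, it gave 7 higher and 8 lower (16.2% and 13.6%). TIM8, TIM10, TIM13, TOM22 and HSP10 were called higher, and HSP60 and MIA40 lower, under both numbers.

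Whether rancRNA_18 or rancRNA_18-M2 changed these mRNAs was addressed within each fraction. In polysomal mRNA 0 of the 36 genes passed for rancRNA_18 against no RNA, for rancRNA_18-M2 against no RNA and for rancRNA_18 against rancRNA_18-M2, where 0.0% of all tested genes passed in each, and 0 had an unadjusted p under 0.05 in edgeR. DESeq2 also called 0 in each, with 1 gene under an unadjusted p of 0.05 in the first, against 0.409% of all tested genes, and 0 in the others. For rancRNA_18 against no RNA the smallest p belonged to HSP60 at -0.48 (SE 0.26) on the lower side and to TIM13 at 0.20 (SE 0.33) on the higher side. With rancRNA_18-M2, TOM7 had 0.36 (SE 0.24) and TOM70 -0.25 (SE 0.20) against no RNA. Between rancRNA_18 and rancRNA_18-M2, OXA1 had -0.62 (SE 0.33) and TIM44 -0.66 (SE 0.41). All of these had an adjusted p of 1.

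The replicate number given to the single rancRNA_18 polysomal library decided its blocked comparisons. As number 1, 0 genes were called against either other group. As number 2, TIM44 (-0.87, SE 0.17, adjusted p = 0.0031) and HSP60 (-0.59, SE 0.16, adjusted p = 0.030) were lower than with no RNA, where 3.8% of all tested genes were called lower and 4.81% higher. Against rancRNA_18-M2, 8 genes were then lower and 0 higher, where 6.76% and 7.45% of all tested genes were. They were TOM6, TIM44, OXA1, SSC1, TOM5, TIM23, SAM37 and PAM16, at log2 fold changes of -1.10 to -0.46. TIM44, for example, had 92.3 CPM with rancRNA_18, 135, 199 and 103 CPM with rancRNA_18-M2, and 105, 174 and 113 CPM with no RNA in polysomal libraries, and numbers 1 and 3 lay nearer to the single library than number 2 did.

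In total mRNA 0 of the 36 genes passed for rancRNA_18 against no RNA (2 against 3 libraries), rancRNA_18-M2 against no RNA (3 against 3) or rancRNA_18 against rancRNA_18-M2 (2 against 3), where 0.0% of all tested genes did in each. DESeq2 and the block also called 0. Unadjusted, a p under 0.05 was seen for 0 genes in edgeR and DESeq2, and for 3, 0 and 7 genes with the block, against 9.74%, 7.4% and 6.85% of all tested genes in the blocked fits. SAM35 stood at 0.22 (SE 0.18) with rancRNA_18 and at 0.20 (SE 0.16) with rancRNA_18-M2, and TIM21 at -0.19 (SE 0.15) and -0.21 (SE 0.14), each against the same no RNA libraries. TOM6 had -0.40 (SE 0.39) for rancRNA_18 against rancRNA_18-M2. With these SEs, differences of this size were not detectable, and a p that misses the threshold does not show that the groups were equal.

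**Figure D5:**
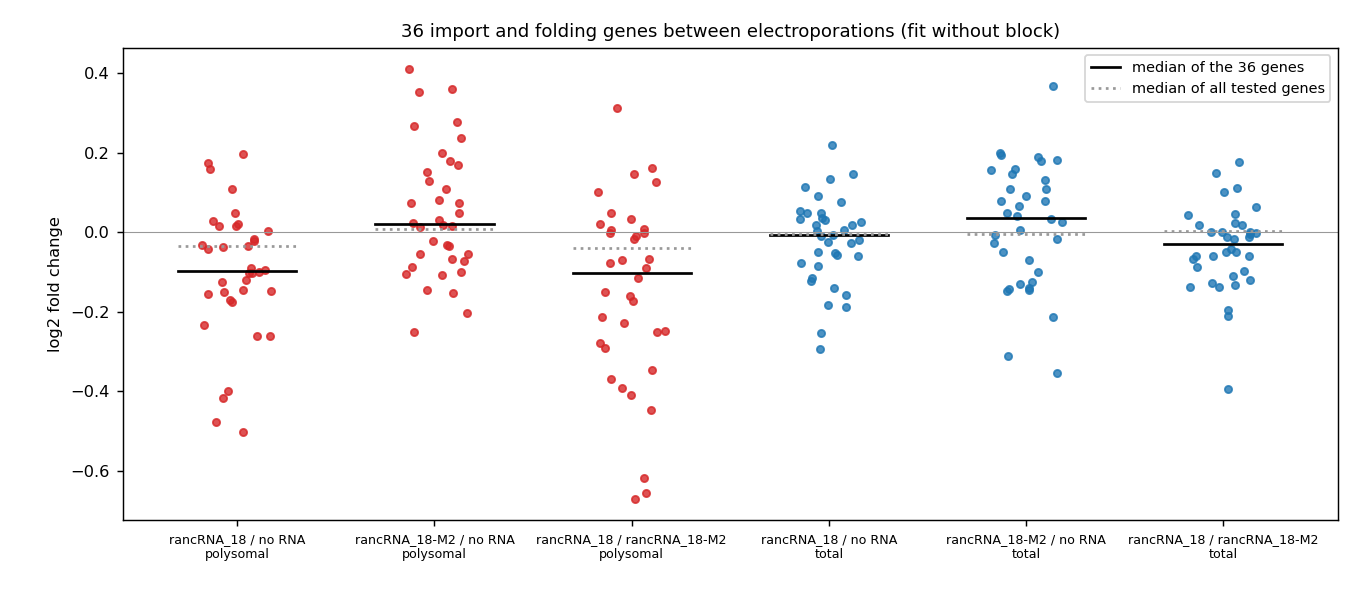
Log2 fold changes of the 36 genes (points) between electroporations, in polysomal mRNA (red, left) and total mRNA (blue, right), from the fit without the block; lines mark the median of the 36 genes (solid) and of all tested genes (dotted). No gene passed the test in any of the 6 comparisons, and the medians of the 36 genes lie between -0.10 and 0.04.

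The difference of polysomal enrichment itself was tested as an interaction. For rancRNA_18-M2 against no RNA 0 of the 36 genes passed in edgeR (0.0% of all tested genes), with 0 under an unadjusted p of 0.05 and 0 called by DESeq2. TOM7 had the smallest p, with a difference in log2 fold change of 0.67 (SE 0.33, unadjusted p = 0.065 by edgeR's quasi-likelihood test). With the block TOM7 had 0.69 (SE 0.26, unadjusted p = 0.017 by the same test), and none of the 36 genes passed after adjustment. For rancRNA_18 against no RNA the same counts were 0, and TIM8 stood at 0.43 (SE 0.41) and HSP60 at -0.48 (SE 0.33). With the block and the single library as number 2, TIM44 passed at -0.86 (SE 0.20, adjusted p = 0.025), where 1.11% of all tested genes were called lower and 1.65% higher, and as number 1 no gene did.

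A further 36 genes of import and quality control, such as targeting factors, inner membrane proteases and prohibitins, were set beside these. Without the block 2 of them were higher and 3 lower in polysomal than in total mRNA, with a median log2 fold change of 0.06, where 5.62% and 4.9% of all tested genes were called. HOT13, which acts with the disulfide relay, had 0.65 (SE 0.11, adjusted p = 0.0064) and IMP1, an inner membrane peptidase subunit, 0.57 (SE 0.14, adjusted p = 0.027). COX18, an insertase related to OXA1, had -0.69 (SE 0.16, adjusted p = 0.020), DJP1, a cytosolic J-protein that helps precursors reach mitochondria, -0.41 (SE 0.11, adjusted p = 0.034) and MDM38, a partner of mitochondrial ribosomes at the inner membrane, -0.32 (SE 0.10, adjusted p = 0.047). With the block 12 were higher and 7 lower, where 21.0% and 22.0% of all tested genes were. With the length correction and no block, 0 were higher and 1 lower, where 3.29% and 4.35% of all tested genes were. Of 73 mitochondrial ribosomal protein genes, 2 were called higher and 8 lower by the fit with no block (median -0.01), and of 39 oxidative phosphorylation genes 6 were higher and 0 lower (median 0.57), to be read against the same 5.62% and 4.9% of all tested genes.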

How the data were processed

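A stranded mRNA kit was used on poly(A) RNA, per the labels' protocols. The submitters' processing notes name FastQC, HISAT2 and featureCounts, without versions. The genome build and the strand setting were not stated, so antisense or overlapping transcripts cannot be told apart from a gene. No other RefSeq gene overlaps any of the 36 genes, but 1078 of the 7126 listed IDs (0.0619 to 0.109% of reads) matched no RefSeq R64 locus tag and were not checked. The values deposited by the authors are raw counts of reads for each gene, not normalized.

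The test was that of edgeR 4.0.16, run in R 4.3.3 (TMM scaling, robust quasi-likelihood F-test, filterByExpr over 6 groups, 1 coefficient per group, 6106 genes, 12 comparisons, Benjamini-Hochberg adjusted p under 0.05, SE from fold change and F). The design was planned for 16 libraries, of which the 15 distinct ones were fitted. DESeq2 1.42.0, DESeq2-style size factors, no filter, only the compared groups, lowess offsets for coding length (span 0.3, 5744 genes) and single libraries left out were tried. The code was checked on simulated counts with known changes.

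Same-numbered libraries of different groups deviated together in all 26 pairs (r 0.429 to 0.794), against -0.587 to 0.0296 in 52 pairs of different numbers. Deviations were taken from the mean of each group and cancel within it. The negative values therefore follow from the positive ones and are not separate evidence. The 26 pairs share libraries and are not independent. The numbers thus pair the libraries. This rests on the data, since the labels state no pairing. The rancRNA_18 polysomal library was left out of blocked fits that do not concern it and otherwise run as number 1 and 2.

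Values per library are given for the 6 genes with the highest and 4 with the lowest polysomal fold change (mean of at least 20 CPM) and the 3 highest and 2 lowest by RPKM, and for other comparisons the 2 genes of smallest p per direction or part of them. TIM44 was shown per library after its values were seen. The 36 genes and all lists were chosen with earlier results of these data known.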

Additional observations from a re-analysis of the deposited data

How the results depend on the processing

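For polysomal against total mRNA over both electroporations, 11 of the 36 genes were called. The count was 22 with the replicate block (MAS2 at an adjusted p of 0.0499), 20 with the block and DESeq2-style size factors, 20 in DESeq2 with the block, and 4 with length offsets. Leaving out single libraries gave 4 to 12 without the block and 18 to 21 with it. Among all tested genes, the block called 21.0% higher and 22.0% lower. Its shares were 12.5% and 9.53% for no RNA alone, and 16.6% and 15.2% for rancRNA_18-M2 alone. No such share is given for the fits with size factors, in DESeq2 with the block or with a library left out. Counts from those fits therefore do not show that the 36 genes differ from other genes. With no RNA alone 0 were called, against 13 with the block, 14 with the block and size factors, 15 in DESeq2 with the block, 1 in DESeq2 and 3 with block and length offsets, and 7 to 14 with the block and a library left out. With rancRNA_18-M2 alone 0 were called, against 19 with the block, 18 with the block and size factors, 18 in DESeq2 with the block, 7 in DESeq2 and 8 with block and length offsets, and 13 to 17 with the block and a library left out. With rancRNA_18 alone 0 were called, against 2 in DESeq2, 8 with the block and 2 with block and length offsets for the single library as number 1, and 15 and 10 as number 2. Number 2 also gave 2 called genes for rancRNA_18 against no RNA and 8 against rancRNA_18-M2 in polysomal mRNA, and 1 for the difference in enrichment. All other counts between electroporations were 0, also with single libraries left out (without the block). The blocked fits with a library left out, with size factors or in DESeq2 were chosen after seeing the data. Among the genes with values per library, TOM5 alone turned sign as a called value, at -0.38 with block and length offsets and 0.07 without either. The calls of TIM8, TOM7, TIM13 and TIM10 ended with length offsets in both fits and those of ERV1 and MAS1 only without the block. HSP10, called with the block, was not with block and length offsets (adjusted p = 0.10). MAS1 also lost its call when only the compared groups were fitted (adjusted p = 0.056). TIM8, ERV1, HSP60 and MIA40 kept their calls without any single library. TOM7, TIM13, TIM10 and MAS1 all lost theirs without replicate 3 of either total group, replicate 2 of either polysomal group or replicate 1 of polysomal no RNA (adjusted p of 0.052 to 0.11). Without replicate 2 of total rancRNA_18-M2 TOM7, TIM10 and MAS1 lost theirs, without its replicate 1 TIM10 and MAS1, without replicate 2 of total no RNA or replicate 1 of polysomal rancRNA_18-M2 TIM13 and MAS1, and without replicate 3 of polysomal rancRNA_18-M2 MAS1. The cause of these changes was not tested.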
